A study of Arabidopsis thaliana with 6 samples.

Results

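The BELL homeobox genes encode TALE homeodomain proteins, and 10 of them were followed here in the binding profiles of the WIP zinc finger proteins TT1 and NTT: *BEL1* (AT5G41410), *BLH1* (AT2G35940), *BLH2* (AT4G36870), *BLH3* (AT1G75410), *BLH4* (AT2G23760), *BLH5* (AT2G27220), *BLH6* (AT4G34610), *RPL* (AT5G02030), *PNF* (AT2G27990) and *ATH1* (AT4G32980). They are 10 of the 27444 nuclear protein-coding genes of the annotation. They were listed by name as members of the family, with binding at some of them, *BLH4* among them, already known from these data. A peak was counted for a gene when its summit, the base of highest ChIP signal, lay between 2000 bp upstream of the annotated gene start and the gene end. The ChIP-seq libraries were made with an antibody against GFP from seedlings aged 7 days, of the line *Dex:TT1-GFP* (1 ChIP and 1 input library) and the line *Dex:NTT-GFP* (2 ChIP and 2 input libraries, called NTT replicate 1 and NTT replicate 2), all in the Col-0 accession and all treated with 1 µM dexamethasone (Dex) for 8 h. In both lines the *pOp6* promoter, driven by a Dex-dependent activator under the 35S promoter, expresses the tagged protein broadly, so that the profiles are of ectopic protein in whole seedlings, and each library came from pooled seedlings. No ChIP library of an uninduced line was analysed here.

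BELL proteins act as heterodimers with KNOX homeodomain proteins, and the partner decides where the pair goes and what it regulates. In *Arabidopsis* the pairs are known for keeping the shoot meristem, setting boundaries between organs, and shaping leaves, fruits and ovules. OVATE family proteins bind both partners. WIP proteins are zinc finger transcription factors, of which TT1 is known from the pigmented seed coat and NTT from the transmitting tract of the pistil.

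The deposited lists held 12908 TT1 peaks, and 16167 and 7447 peaks of NTT replicates 1 and 2, with median fold enrichments, the linear ratio at the summit of ChIP signal over the local background, of 3.99, 5.90 and 3.94. The number of reads behind them is not given in the sources used here, so that fold enrichments were compared within a library, as percentiles among all its peaks, and where no peak is given for a gene, none was detectable at that depth. TT1 had 1 library and NTT 2, so that no difference between the proteins could be tested against replicate error. The methods describe the NTT libraries as biological replicates, from seedling pools that were raised and induced separately. Interval lists published for these libraries name the 2 proteins in one place as the labels do and in another the other way round, and the labels were followed here.

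Peaks were found at 8 of the 10 BELL genes. TT1 peaks lay at 7 of them (*BEL1*, *BLH1*, *BLH2*, *BLH3*, *BLH4*, *BLH6* and *RPL*), against 38.3% of all protein-coding genes. NTT peaks lay at 7 in replicate 1 and at the same 7 in replicate 2 (*BEL1*, *BLH1*, *BLH2*, *BLH3*, *BLH4*, *BLH6* and *PNF*), against 44.7% and 26.8% of all protein-coding genes. A peak in both NTT libraries was held by 7 BELL genes, against 24.4% of all genes, and a peak in all 3 libraries by 6, against 20.2%. *RPL* had a TT1 peak and no NTT peak, as 5.09% of all genes did, and *PNF* had a peak in both NTT libraries and none of TT1, as 4.22% did. *BLH5* and *ATH1* had no peak, as was the case for 47.9% of all genes.

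The windows of the BELL genes were long, between 4704 and 7621 bp with a median of 5522 bp, against a median of 4078 bp over all protein-coding genes. Among the 7687 genes whose windows fell in the same range, 46.9% had a TT1 peak, 53.8% a peak in NTT replicate 1 and 33.3% a peak in NTT replicate 2. Of these genes 30.7% had a peak in both NTT libraries, 25.8% in all 3 libraries and 37.7% in none. TT1 alone was found at 5.97% and both NTT libraries without TT1 at 4.94% of them. The shares of BELL genes with a peak stood above those of genes with windows as long in each library, but they rest on 10 genes of 1 family.

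**Figure D1:**
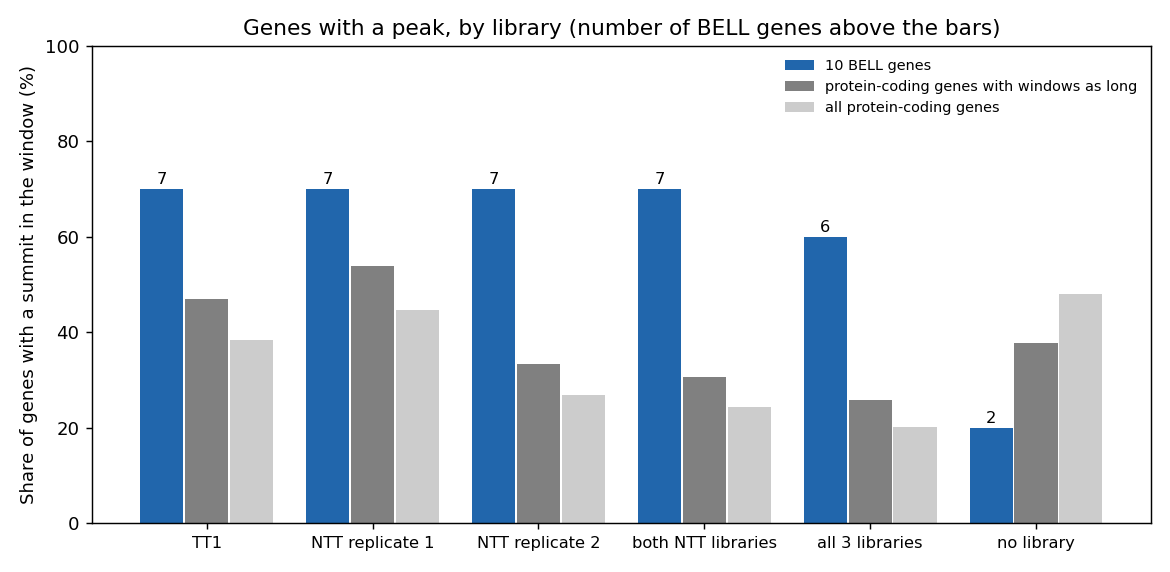
Share of genes (%) with at least 1 peak summit in the window, for the 10 BELL genes (blue, with the number of genes above each bar), for the 7687 protein-coding genes with windows of 4704 to 7621 bp (dark grey) and for all 27444 protein-coding genes (light grey). The share with a peak in all 3 libraries was 6 of 10 BELL genes, against 25.8% and 20.2% in the grey bars.

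Together the BELL genes held 44 peaks, 15 of TT1 and 17 and 12 of NTT replicates 1 and 2. Peaks of different libraries that shared at least 1 bp were merged into 22 sites, of which 8 had a peak in all 3 libraries, 4 in TT1 and NTT replicate 1, 2 in both NTT libraries, and 3, 3 and 2 in TT1, NTT replicate 1 or NTT replicate 2 alone. Many of the genes carried several peaks. At least 2 TT1 peaks lay at 4 BELL genes (*BEL1*, *BLH1*, *BLH2* and *BLH4*), against 10.9% of all genes and 14.5% of those with windows as long. For NTT replicate 1 this held for 5 BELL genes, with *BLH3* added, against 16.1% and 21.4%. For NTT replicate 2 it held for 3 (*BEL1*, *BLH2* and *BLH4*), against 4.77% and 6.52%.

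**Figure D2:**
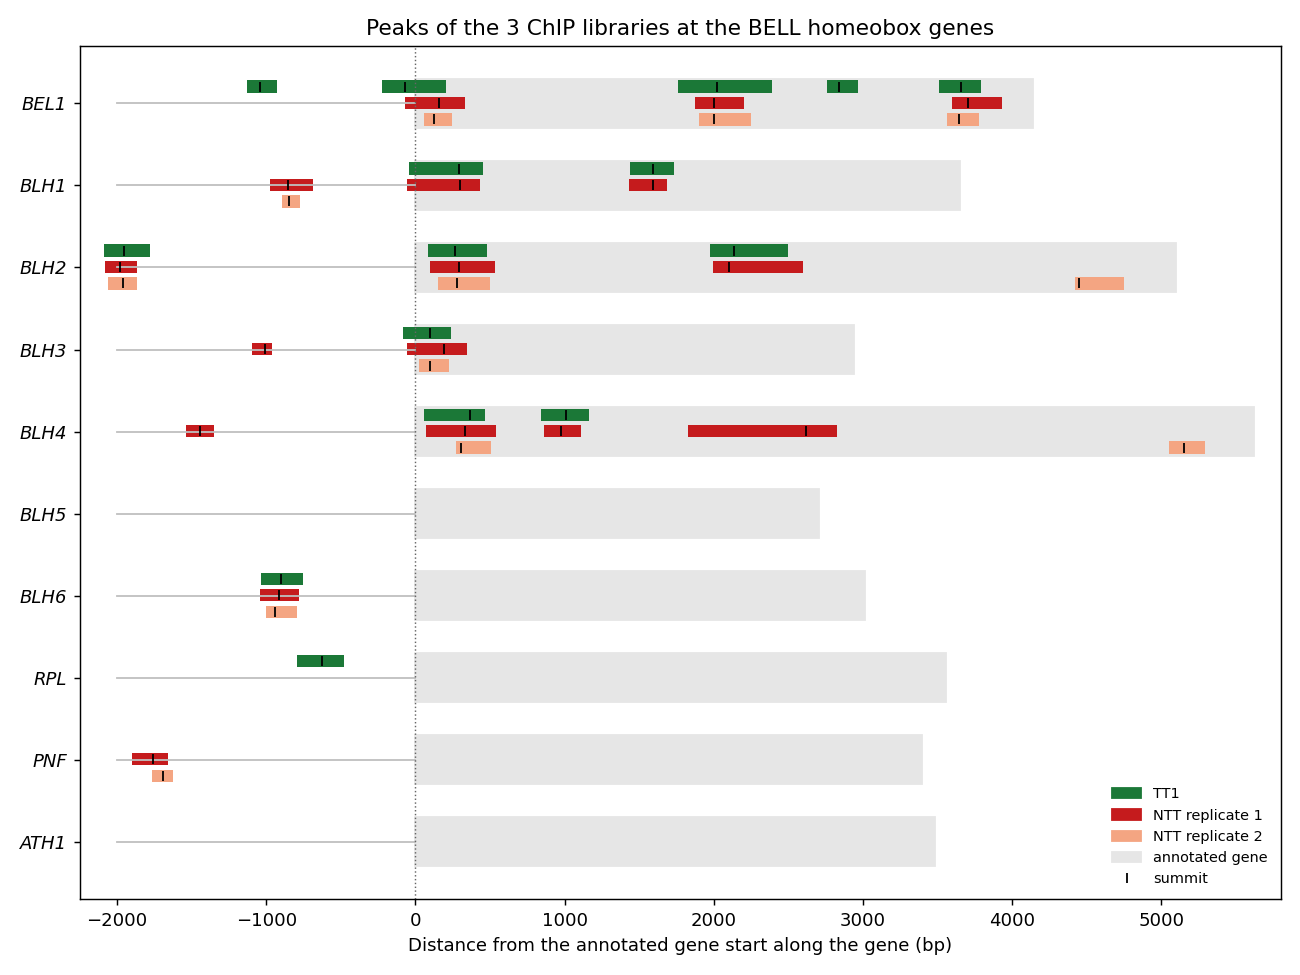
Peaks of TT1 (green), NTT replicate 1 (red) and NTT replicate 2 (orange) along the 10 BELL genes, drawn to scale by distance in bp from the annotated gene start, with the summit as a black tick, the annotated gene as a grey box and the 2000 bp upstream as a line. *BEL1* had the most peaks (11), *BLH5* and *ATH1* had none, and 8 sites had a peak of every library.

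The sites near the gene starts are shown first, because a GA or CT repeat lay beside a summit of at least 1 library at each of them. A 5′ UTR summit was held by 4 BELL genes for TT1 (*BLH1*, *BLH2*, *BLH3* and *BLH4*), against 11.0% of all protein-coding genes, by 5 for NTT replicate 1 (the same and *BEL1*), against 16.2%, and by 4 for NTT replicate 2 (*BEL1*, *BLH2*, *BLH3* and *BLH4*), against 9.08%. *BLH2*, *BLH3* and *BLH4* had one in every library, as 1372 of the 27444 genes did. For 5′ UTR summits no share was taken over genes with windows as long. The sequences below are from the TAIR10.1 genome, each on the strand of its gene, 5′ to 3′. Those listed here, and *BLH4* +1010 and *BLH6* −917 further on, are centred on the GAGAGAG match nearest to a summit. The other stretches printed further on are centred on the median summit of their site. Capitals mark matches to GAGAGAG or its reverse complement CTCTCTC. They are given with the site in bp from the gene start.
BEL1 +125, chr5:16580055-16580083, plus strand: tctcttttcttCTCTCTCTCTCtgttata
BLH1 +299, chr2:15092149-15092177, minus strand: tgtgtctgtCTCTCTCTCtttctctttga
BLH2 +281, chr4:17369178-17369206, plus strand: atcttcttatgCTCTCTCtttgcatacat
BLH3 +98, chr1:28302515-28302543, minus strand: tctctttctttCTCTCTCtttttgtcatc
BLH4 +336, chr2:10112971-10112999, minus strand: caaggtacttcCTCTCTCTCTCTCTCTCt
All 5 matches lie in the 5′ UTR of at least 1 annotated transcript and read as CT on the gene's strand. The middle of the match lay 8 bp from the nearest summit at *BEL1* (NTT replicate 2) and 39 bp at *BLH1* (TT1). It lay 4 bp away at *BLH2* (NTT replicate 2), 8 bp at *BLH3* and 6 bp at *BLH4* (both NTT replicate 1). Summits of the other libraries lay further from the printed match.

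*BLH2* and *BLH4*, also called *SAW1* and *SAW2*, act redundantly at the leaf margin, where they hold back KNOX genes. *BLH2* lies on chr4:17368915-17374011 (plus strand), and its 5′ UTR peaks had summits at +265, +293 and +281 bp with fold enrichments of 5.93 in TT1, 12.8 in replicate 1 and 5.86 in replicate 2 of NTT. These were the 87.2, 98.9 and 95.2 percentiles of their libraries, so that the site was strong in each. The summits lay 28 bp apart between TT1 and NTT replicate 1 and 16 bp apart between TT1 and NTT replicate 2, and within 13 bp of one of the transcript starts annotated inside the gene. A second site of all 3 libraries lay at the far end of the window, with summits at −1952, −1977 and −1959 bp and fold enrichments of 5.30, 7.27 and 4.54 in TT1, NTT replicate 1 and NTT replicate 2. Of the 8 sites of all libraries it varied least between the NTT libraries, by 3.50 percentile points (replicate 2 the higher), with TT1 above both. An intron site at +2133 bp in TT1 (5.93) and +2105 bp in NTT replicate 1 (8.65) had no peak in NTT replicate 2, which instead had a weak peak at +4449 bp in a coding exon (2.86, the 4.47 percentile). That summit was nearer to the start of *CP1* than to that of *BLH2*.

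*BLH4* lies on chr2:10107707-10113327 (minus strand). Its 5′ UTR peaks had summits at +365, +336 and +309 bp with fold enrichments of 2.92 in TT1, 12.6 in replicate 1 and 3.58 in replicate 2 of NTT. The site was thus among the weaker ones of TT1 (9.27 percentile) and among the strongest of NTT replicate 1 (98.6 percentile), but it was at the 31.5 percentile of NTT replicate 2. The NTT libraries therefore differed by 67.1 percentile points, the widest gap between them at the 8 sites of all libraries. TT1 differed by less than this from NTT replicate 2 (−22.2 points) and by more from NTT replicate 1 (−89.3 points). The summits lay between 0 and 43 bp from an annotated transcript start inside the gene, although the outermost one lay 309 bp or more away. Inside the coding sequence, *BLH4* had a site of TT1 (+1010 bp, 3.63) and NTT replicate 1 (+977 bp, 5.27), a wide peak of NTT replicate 1 alone at +2621 bp (9.54), and a peak of NTT replicate 2 alone at +5154 bp (4.22), the summit of which was nearer to the start of AT2G23755. NTT replicate 1 also had an upstream peak at −1442 bp (6.03). The coding site of TT1 and NTT replicate 1 is printed because it holds both a CT repeat and a palindromic CACGTG, each in capitals.
BLH4 +1010, chr2:10112214-10112314, minus strand: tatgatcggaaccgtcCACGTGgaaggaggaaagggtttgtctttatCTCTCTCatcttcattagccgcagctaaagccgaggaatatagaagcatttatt
The CACGTG lay 22 bp from the TT1 summit and 55 bp from that of NTT replicate 1, and the CT repeat 53 and 86 bp. The printed stretch is centred on the CT repeat, and both summits lie outside it, that of TT1 the closer.

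*BEL1*, on chr5:16579936-16584077 (plus strand), gives the family its name and sets integument identity in the ovule. It had the most peaks, 5 of TT1 and 3 in each NTT library. Its strongest TT1 peak lay in a coding exon at +2019 bp, with a fold enrichment of 7.20 (96.2 percentile), and NTT peaks stood at the same place, at +2000 bp with 6.60 (61.4 percentile) in replicate 1 and at +1999 bp with 5.75 (94.5 percentile) in replicate 2. The summits of the NTT libraries were 1 bp apart there, and that of TT1 was 19 and 20 bp away. It was the strongest TT1 peak at any BELL gene and the strongest *BEL1* peak of NTT replicate 2, and the sequence around it held none of the motifs searched.
BEL1 +2000, chr5:16581886-16581986, plus strand: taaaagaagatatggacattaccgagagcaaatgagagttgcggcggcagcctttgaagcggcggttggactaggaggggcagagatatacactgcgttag
At the gene start the order was the other way round. The TT1 peak was weak (3.33, 25.1 percentile) with its summit at −67 bp, whereas NTT summits lay in the 5′ UTR at +161 bp (9.90, 91.3 percentile) and +125 bp (4.24, 63.2 percentile). The peaks overlapped, but the TT1 summit was 228 and 192 bp upstream of those of NTT. Another site of all libraries lay in a coding exon near the gene end, at +3660 bp in TT1 (3.34), +3703 bp in replicate 1 (6.39) and +3647 bp in replicate 2 of NTT (2.86). TT1 alone had weak peaks at −1041 bp (3.42) and in an intron at +2838 bp (3.30). The intron peak and the site near the gene end were nearer to the start of the neighbouring AT5G41420 than to that of *BEL1*. Coding exon summits were held by 2 BELL genes in TT1 (*BEL1* and *BLH4*), against 3.53% of all protein-coding genes, by the same 2 in NTT replicate 1, against 6.86%, and by these and *BLH2* in NTT replicate 2, against 3.20%. Both *BEL1* and *BLH4* had one in all 3 libraries, as 1.06% of all genes did, but at *BLH4* not at one site. These shares are over genes of every length, and none was taken over genes with windows as long.

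The genes most like *BEL1* in the percentile of their highest fold enrichment in TT1, NTT replicate 1 and NTT replicate 2 (96.2, 91.3 and 94.5) were sought over all protein-coding genes with a peak in each of the 3 libraries. The nearest was *HCF243*, at 96.2, 90.8 and 92.6 and a Euclidean distance of 1.93 percentile points. AT5G41590 and *BTI3* followed at a distance of 2.36, both with 98.1, 91.2 and 93.1, values which these neighbouring genes had in common. The likeness is over 3 libraries only.

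*BLH1*, on chr2:15088762-15092415 (minus strand), pairs with KNAT3 and has a part in responses to abscisic acid. Its 5′ UTR site had fold enrichments of 5.47 in TT1 (+291 bp, 81.6 percentile) and 10.7 in NTT replicate 1 (+299 bp, 94.4 percentile), and no peak of NTT replicate 2. An intron site, inside an overlapping non-coding gene (AT2G35945) the start of which was nearer, had 4.35 in TT1 and 5.83 in NTT replicate 1 with summits 1 bp apart. The only peak of NTT replicate 2 was upstream, at −850 bp (4.00), 1 bp from the summit of NTT replicate 1 (9.58), and there TT1 had none. *BLH1* was therefore bound in every library but had no site of all 3, unlike the 5 other BELL genes with peaks in every library. The upstream site is printed because it was the only site with a W-box near the summits of both NTT libraries, 41 bp from that of replicate 1 and 40 bp from that of replicate 2. W-boxes, TTGACC or TTGACT, are the elements known to be bound by WRKY factors, and the reverse complement is in capitals.
BLH1 −850, chr2:15093215-15093315, minus strand: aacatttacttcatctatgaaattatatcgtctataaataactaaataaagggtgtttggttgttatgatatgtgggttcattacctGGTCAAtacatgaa

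*BLH3*, on chr1:28299786-28302728 (minus strand), is known to partner the meristem protein STM. Its 5′ UTR site had fold enrichments of 4.46 in TT1, 8.00 in replicate 1 and 3.91 in replicate 2 of NTT (63.4, 78.2 and 48.4 percentiles). The summits of TT1 and NTT replicate 2 were at the same base, +98 bp, and that of NTT replicate 1 at +191 bp, next to the CT repeat shown. NTT replicate 1 had one more peak at −1006 bp (4.50).

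*BLH6*, on chr4:16530346-16533362 (minus strand), works with KNAT7 on the secondary cell wall. It had a single site, upstream and with a peak in each library. The summits were at −904, −917 and −944 bp, and the fold enrichments were 3.70 in TT1, 8.60 in replicate 1 and 4.34 in replicate 2 of NTT (40.0, 83.3 and 66.8 percentiles). A long CT repeat (capitals) lay 14 bp from the nearest summit, that of NTT replicate 2.
BLH6 −917, chr4:16534270-16534370, minus strand: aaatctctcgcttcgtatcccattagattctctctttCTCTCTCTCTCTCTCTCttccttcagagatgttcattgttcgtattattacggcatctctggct

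*RPL* and *PNF*, which act redundantly in the inflorescence meristem and in the change to flowering, were each found with 1 of the proteins. *RPL*, also needed for the replum of the fruit, lies on chr5:395567-399125 (plus strand). It had a TT1 peak at −625 bp with a fold enrichment of 6.05, the 88.4 percentile, and the nearest NTT summits were outside the window at −4421 and −4455 bp. The sequence at the TT1 summit held no GAGAGAG, W-box or ACGTG.
RPL −625, chr5:394892-394992, plus strand: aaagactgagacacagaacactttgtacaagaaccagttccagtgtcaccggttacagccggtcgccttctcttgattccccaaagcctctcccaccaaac
*PNF*, on chr2:11921350-11924748 (minus strand), had 1 peak in each NTT library, at −1756 bp with 6.20 (55.1 percentile) in replicate 1 and at −1694 bp with 3.99 (53.0 percentile) in replicate 2. Both summits lay at the start of the neighbouring gene *CPN60A*, which encodes a chaperonin subunit of the chloroplast, at 58 and −4 bp from that start, and a GAGAGAG match was 19 bp from the nearest summit. To which of the genes the peaks belong cannot be told apart from their position. The nearest TT1 summit was at −16570 bp.

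*BLH5* (chr2:11637106-11639809, minus strand) and *ATH1* (chr4:15914670-15918153, minus strand), a light-regulated gene of the meristem and of organ boundaries, had no peak in any library. For *BLH5* the nearest summits were at −4505 bp (8.97) and −4467 bp (4.57) in NTT replicates 1 and 2, where *BLH5* was still the gene with the nearest start, and at −10094 bp in TT1. For *ATH1* they lay 6765 bp past the gene end in TT1 and 4615 and 4598 bp past it in NTT replicates 1 and 2, nearer to other genes.

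**Figure D3:**
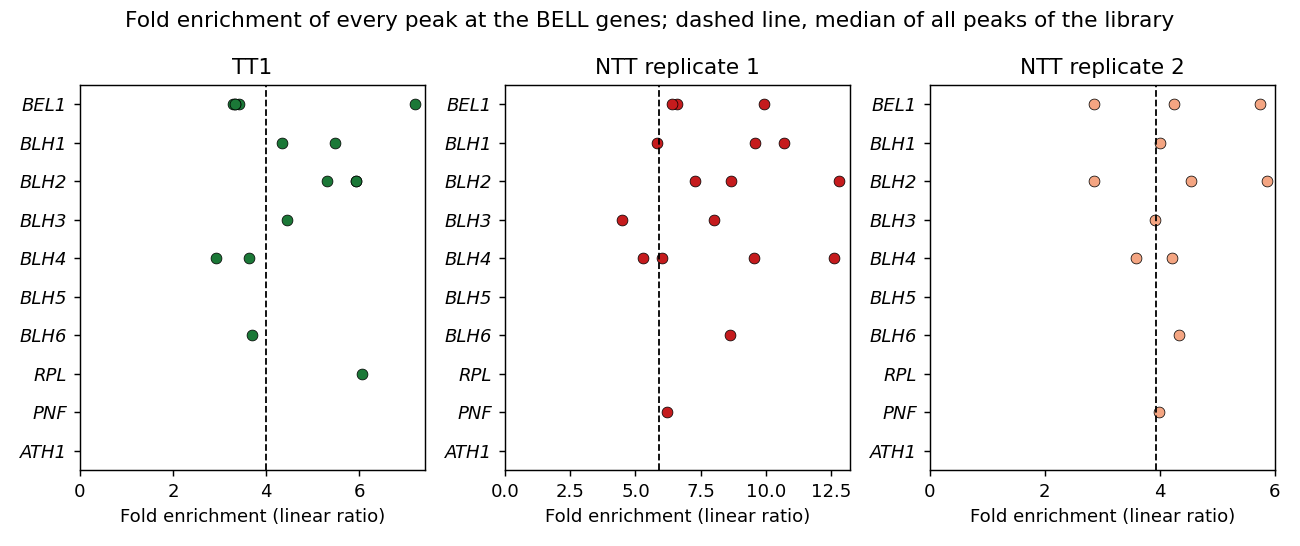
Fold enrichment (linear ratio of ChIP signal to local background) of every peak at the 10 BELL genes, with a panel for each library and a dashed line at the median of all peaks of that library (3.99, 5.90 and 3.94). The highest value was at *BEL1* in TT1 (7.20) and at *BLH2* in NTT replicate 1 (12.8) and NTT replicate 2 (5.86).

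Over the BELL genes with a peak, the highest fold enrichment per gene was between 3.63 and 7.20 in TT1, with a median of 5.47, against a median of 4.22 over all 10518 protein-coding genes with a TT1 peak. In NTT replicate 1 it was between 6.20 and 12.8 with a median of 9.90, against 6.44 over 12261 genes, and in NTT replicate 2 between 3.91 and 5.86 with a median of 4.22, against 3.97 over 7355 genes. Genes with several peaks have more chances of a high one, which this comparison does not take out.

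Most TT1 peaks at these genes overlapped a peak of NTT replicate 1, as most TT1 peaks of the whole list did. Of the 15 TT1 peaks, 12 overlapped a peak of NTT replicate 1 (80.0%, against 74.3% of all TT1 peaks), and 8 one of NTT replicate 2 (53.3%, against 41.5%). Of the 17 peaks of NTT replicate 1, 10 overlapped one of NTT replicate 2 (58.8%, against 39.8%). The median distance between summits was 28.0 bp for TT1 and NTT replicate 1 (28.0 bp over all overlapping peaks), 18.0 bp for TT1 and NTT replicate 2 (31.0 bp) and 27.0 bp between the NTT libraries (24.0 bp). Overlap at the BELL genes thus lay near the level of the whole lists for TT1 and NTT replicate 1. At the 8 sites of all libraries, the TT1 percentile was below both NTT values at 4 sites (*BEL1* +125, *BLH2* +281, *BLH4* +336 and *BLH6* −917), above both at 2 (*BEL1* +2000 and *BLH2* −1959) and between them at 2 (*BEL1* +3660 and *BLH3* +98). The NTT libraries themselves differed by between 3.50 and 67.1 points, and replicate 1 was the higher at 6 of the 8 sites.

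**Figure D4:**
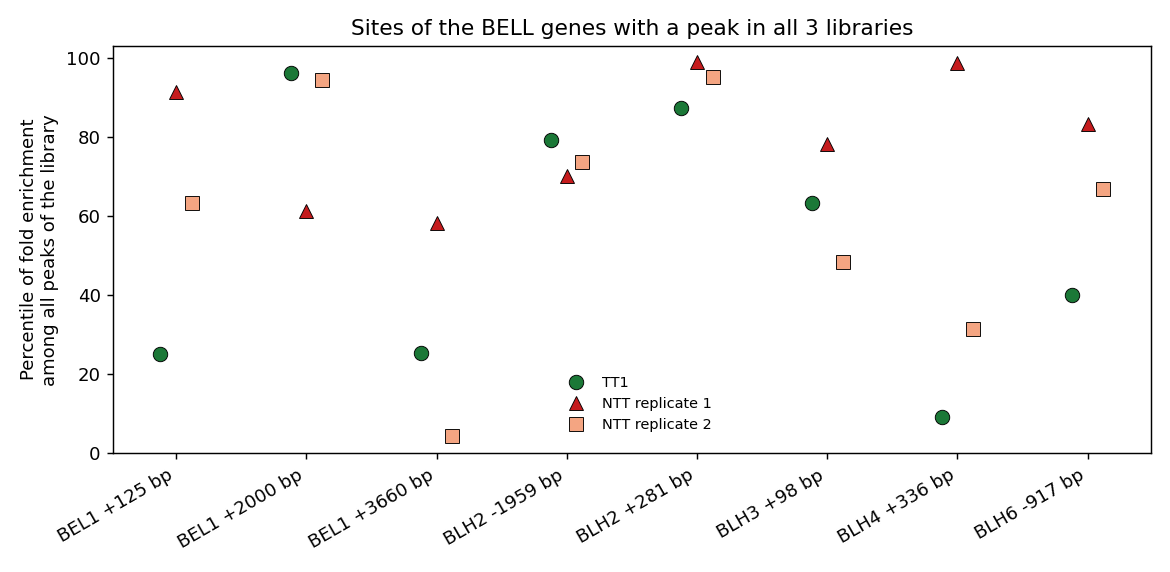
Percentile of the fold enrichment among all peaks of the same library, at the 8 sites with a peak in every library, for TT1 (circles), NTT replicate 1 (triangles) and NTT replicate 2 (squares), with each site named by its gene and its distance in bp from the gene start. The NTT libraries were 67.1 points apart at *BLH4* +336 and 3.50 points apart at *BLH2* −1959.

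Both strands within 100 bp of each summit were searched for motifs. A site was counted for a motif when any of its summits had a match, and no share over the sites of other genes is given for any motif. Only the counts by library can therefore be set beside a background. GAGAGAG was found at 9 of the 22 sites and at 5 of the 8 sites of all libraries. By library it lay at 7 of the 15 TT1 peaks, against 16.0% of all TT1 peaks, at 8 of the 17 peaks of NTT replicate 1, against 21.5%, and at 5 of the 12 peaks of NTT replicate 2, against 26.1%. It was held by 14.8% of windows of the same length around all gene starts. CT repeats are common in 5′ UTRs, and among all peaks with a summit in a 5′ UTR 37.3%, 46.7% and 46.9% had a match in TT1, NTT replicate 1 and NTT replicate 2. Of the BELL peaks of that kind it was 3 of 4, 5 of 5 and 3 of 4, and the peaks without one were those of *BLH3* at +98 bp.

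W-boxes (TTGACC or TTGACT) were found at 6 of the 22 sites. They lay at 3 of the 15 TT1 peaks, against 31.8% of all TT1 peaks, at 3 of 17 and 2 of 12 in NTT replicates 1 and 2, against 28.1% and 27.2%, and in 21.8% of windows around all gene starts. ACGTG, the core of abscisic acid response elements, was found at 8 sites, with 5 of 15, 6 of 17 and 3 of 12 peaks in TT1, NTT replicate 1 and NTT replicate 2, against 29.0%, 25.5% and 35.1% of all peaks and 19.9% of gene starts. Its palindromic form CACGTG, which overlaps it, was found at 6 sites and at 5 of the 15 TT1 peaks, against 9.91% of all TT1 peaks, at 3 of 17 in NTT replicate 1, against 7.37%, and at 2 of 12 in NTT replicate 2, against 15.5%, with 5.75% of gene starts. Among the sites with ACGTG was the upstream site of *BLH2*, where a match (capitals) lay 28 bp from the TT1 summit.
BLH2 −1959, chr4:17366906-17367006, plus strand: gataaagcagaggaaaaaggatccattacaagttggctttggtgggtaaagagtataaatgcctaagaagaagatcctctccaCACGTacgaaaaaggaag

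The remaining BELL genes of the genome, *BLH7*, *BLH10* and *BLH11*, all had a peak in TT1 and in NTT replicate 1, and *BLH10* and *BLH11* also in NTT replicate 2, against the same shares of all genes as above. *BLH10* had its highest peaks in the 5′ UTR, with summits at +498 bp in TT1 (3.55), +463 bp in replicate 1 (8.37) and +448 bp in replicate 2 of NTT (3.59). Motifs are not given for this gene. *BLH11* had 1 upstream site, at −607 bp (4.59), −635 bp (5.50) and −646 bp (3.63) in the same order. *BLH7* had peaks of TT1 at −1141 bp (5.10) and of NTT replicate 1 at −1156 bp (7.99).

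Of the 9 KNOX genes, the partners of BELL proteins, 6 had a TT1 peak, against 38.3% of all protein-coding genes, 6 a peak of NTT replicate 1, against 44.7%, and 3 a peak of NTT replicate 2, against 26.8%. *KNAT3*, *KNAT4* and *KNAT6* had one in all 3 libraries, against 20.2%. For the KNOX genes, the remaining BELL genes above and the OVATE genes below, no share was taken over genes with windows as long. *KNAT3*, the partner of BLH1, had highest fold enrichments of 4.72 in TT1 (5′ UTR, +52 bp), 8.45 in replicate 1 (−646 bp) and 4.14 in replicate 2 of NTT (5′ UTR, +84 bp). *KNAT4* had 5 TT1 peaks, the highest at −1214 bp (5.48), and its highest peaks of NTT replicates 1 and 2 were elsewhere, at +3734 bp (5.81), nearer to the start of AT5G11070, and at −107 bp (4.12). At *KNAT6*, a boundary gene of the meristem, the peaks of all 3 libraries lay in an intron at +4260, +4314 and +4376 bp (5.40, 8.13 and 3.69), nearer to the start of *MENG*. *STM*, the KNOX gene that maintains the shoot meristem, and *KNATM* had no peak. Of the OVATE family only *OFP1* to *OFP5* were looked at, so that the counts are not those of the whole family. Of these 5 genes, 3 had a peak in TT1, against 38.3% of all genes. The same 3 had one in NTT replicate 1, against 44.7%. In NTT replicate 2 it was 2 (*OFP1* and *OFP5*), against 26.8%, and these thus had a peak in all libraries, against 20.2%. *OFP1* had summits at −21, −49 and −53 bp (3.66, 5.44 and 4.06). *OFP5* had 5′ UTR summits at +110, +581 and +630 bp (5.56, 9.86 and 4.68), all nearer to the start of AT4G06850.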

How the data were processed

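DNA of the ChIP and input samples from the *Dex:TT1-GFP* line and the *Dex:NTT-GFP* line was sequenced with single-end reads by the authors. According to the study's methods and the submitters' processing notes, reads were mapped with BWA, filtered for unique mapping with SAMtools and cleared of duplicates with Picard, and peaks were called with MACS2 (2.1.2) in each ChIP library without pooling. The deposited lists give the authors' fold enrichment (a linear ratio at the summit), −log10 p-value and −log10 q-value, and a score of 10 times the −log10 q-value. All deposited peaks were used, the lowest −log10 q-values being 9.41 (TT1), 9.14 (NTT replicate 1) and 9.01 (NTT replicate 2). Reads and inputs were not analysed here, and the depth is not given in the sources used here.

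Gene models were those of RefSeq on TAIR10.1, whose 5 nuclear chromosomes have the coordinates of TAIR10, and every peak lay within them. Distances run along the gene from its outermost annotated start. Features were assigned from any transcript in the order coding exon, 5′ UTR, 3′ UTR, intron. Where the text gives a nearest start, it is that of all 37899 nuclear genes, non-coding ones included. Sites are member peaks that share at least 1 bp. The assignment was tested on simulated data. Scripts were written in Python with NumPy, and no test across genes was run, since TT1 has 1 library. Named were all 10 BELL genes, each gene of the related lists with a peak in all 3 libraries, the 3 genes most like the BELL gene with the most peaks, and neighbours with a nearer start. *STM*, *KNATM* and *BLH7* were named after their values were seen. The members and lists were chosen with earlier results of these data known. Alternatives were other thresholds, windows, peak positions and overlaps, and leaving out each NTT library.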

Additional observations from a re-analysis of the deposited data

How the results depend on the processing

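Of 58 alternative values of the 11 counts, 50 stayed within 1.5 times. Summits within 2000 bp upstream of the gene start alone leave out 5′ UTR, exon and intron sites by construction. BELL genes then numbered 4 with TT1 peaks, 6 with peaks of NTT replicate 1, 4 with peaks of NTT replicate 2, 4 for both NTT libraries and 2 for all 3 libraries (*BLH2* and *BLH6*). No share of all genes is given for this window, so whether these counts stand above the background is not known. With summits from 1500 bp upstream to 1000 bp downstream of the gene start there were 8 TT1 peaks, 10 peaks of NTT replicate 1 and 6 of NTT replicate 2. Sites with a W-box numbered 2 within 50 bp of a summit. Where the nearest gene start had to be that of the BELL gene, *PNF* lost its NTT peaks. This setting left 12 of the 15 TT1 peaks, 14 of the 17 peaks of NTT replicate 1 and 8 of the 12 peaks of NTT replicate 2. With the same number of best peaks (7447) in each library, *BLH4* lost those of TT1 and *PNF* that of NTT replicate 1. With a −log10 q of at least 20, *BLH1* lost its peak of NTT replicate 2, and 8 of the 12 peaks of that library were left. Its peaks at 2 sites of all libraries, *BLH4* +336 (19.7) and *BEL1* +3660 (14.4), were also lost. Without NTT replicate 1 or without NTT replicate 2, the count of BELL genes with NTT peaks was 7 and that with TT1 and NTT peaks 6. This had to be so, because both libraries had peaks at the same 7 genes, and these values are among the 50. By site, 6 BELL genes had a site of TT1 and NTT replicate 1, and 5 had a site of all 3 libraries. No paired analysis was possible because the numbers shared by the NTT ChIP and input libraries belong to inputs without a peak list, and TT1 has a single library.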
